A study of Sus scrofa with 10 samples.

Results

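CTR9, PSIP1, EP400, HDAC1, DNMT1 and ASH2L code for proteins that work on chromatin or on RNA polymerase II as it elongates. They are 6 of the 6765 genes that the porcine array could name, and all 13 of their probe sets with a single gene symbol were used, out of 24123 probe sets in all. The genes were chosen by how SSEA-1 positive fractions differed from negative ones on these same arrays, so those differences are given as a description and carry no test.

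The cells were porcine fetal fibroblasts of Danish Landrace/Yorkshire x Duroc embryos at day 24, grown from fetal tissue without the head and described in the series title as a cell line. Magnetic beads with an antibody to SSEA-1, a carbohydrate of the cell surface, divided them into SSEA-1 positive fractions (5 arrays) and SSEA-1 negative ones (5 arrays), each with replicate numbers 1 to 5. For both kinds of fraction the labels name no genetic change or drug, and they do not give the purity after sorting. They call the replicates biological without saying whether these were separate embryos or cultures. The p-values therefore set a difference against the spread between these samples only, and may not extend to other embryos.

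As background, genes are transcribed through nucleosomes, and both the histones and the DNA carry chemical marks that are written and removed by enzymes. CTR9 is the scaffold of the PAF1 complex, which travels with RNA polymerase II and promotes histone modification behind it. PSIP1, also called LEDGF, reads methylated histone H3 with its PWWP domain and ties other proteins to transcribed chromatin. EP400 is the motor ATPase of the TIP60 complex, which acetylates histones and exchanges histone H2A.Z. HDAC1 removes acetyl groups within the SIN3, NuRD and CoREST complexes. DNMT1 copies DNA methylation onto new strands during replication. ASH2L is a core subunit of the COMPASS family of histone H3 lysine 4 methyltransferases.

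Values are log2 signals, and 1 unit is a doubling. A probe set counted as above background when its signal exceeded 0.352. Of the readings of 23 controls for absent sequences, taken over all arrays, 95% stay below this cutoff. On each array between 69.3% and 72.5% of probe sets lay above it, and array medians ran from 1.15 to 1.19. The defining markers of fibroblasts were present: 9 of 9 measured ones, VIM, FN1, DCN and LUM among them, averaged above background, and their mean level was 7.03 to 7.22 in positive and 6.95 to 7.16 in negative fractions. COL1A2, a collagen chain, rose, and with a replicate block THY1 passed as well (difference 0.34, adjusted p = 0.0146). Of other cell types, the endothelial markers CDH5, KDR and TEK and the blood cell markers PTPRC and SPI1 averaged below background. The epithelial marker EPCAM did so over all arrays, but it averaged 0.444 in positive fractions, above background, and 0.196 in negative ones. Above background over all arrays were PECAM1 at 0.80 in positive and 0.83 in negative fractions and VWF at 0.54 and 0.48. So were the globin HBB at 4.38 and 4.54, the muscle marker DES at 7.20 and 6.92 and the keratin KRT8 at 5.42 and 5.47. Among epithelial markers, KRT18 at 1.452 and 1.541 and CDH1 at 0.531 and 0.346 were too, with CDH1 higher in 5 of 5 pairs. KRT19, MYOD1, MYF5, SOX10, POU5F1 and ZFP42 also averaged above background over all arrays. Of these, MYOD1 averaged 0.416 in positive fractions and 0.325, below background, in negative ones. POU5F1 at 0.522 and 0.443, ZFP42 at 0.455 and 0.431 and MYF5 at 0.555 and 0.564 lay close to background. Little can be read from such levels. The epithelial list averaged 1.56 to 2.13 in positive and 1.42 to 2.18 in negative fractions; none of its 5 markers passed, but 3 read higher at an unadjusted p under 0.05, and KRT19 passed with the block (difference 0.40, adjusted p = 0.0272, higher in 5 of 5 pairs). How many of all genes had such an unadjusted p was not counted. The part of other cell types in the differences of the 6 genes was not tested. With 5 arrays per fraction, precision is limited by their number.

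Of the 6 genes, 5 read lower in SSEA-1 positive fractions on their brightest probe set, and EP400 alone read higher. CTR9 and PSIP1 were the lowest relative to negative fractions, at 0.506 and 0.592 times their signal, while HDAC1, DNMT1 and ASH2L read 0.744, 0.740 and 0.807 times theirs and EP400 1.76 times. Over all 13 probe sets, 10 read lower and 3 higher. At a limma adjusted p under 0.05, 6 of the 13 passed, 1 for each gene. For DNMT1 and ASH2L the brightest probe set did not pass. The ones that did were dimmer, Ssc.28076.1.A1_at (0.76 in positive fractions) and Ssc.5076.2.S1_at (1.65). Of the 6 that passed, 5 were lower and 1 higher. Among all probe sets that are not controls, 3.51% passed as lower and 2.50% as higher. Since this contrast chose the genes, nothing is read from those counts. In RNA from a whole fraction, fewer cells that express a gene and less of its RNA per cell cannot be told apart.

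**Figure D1:**
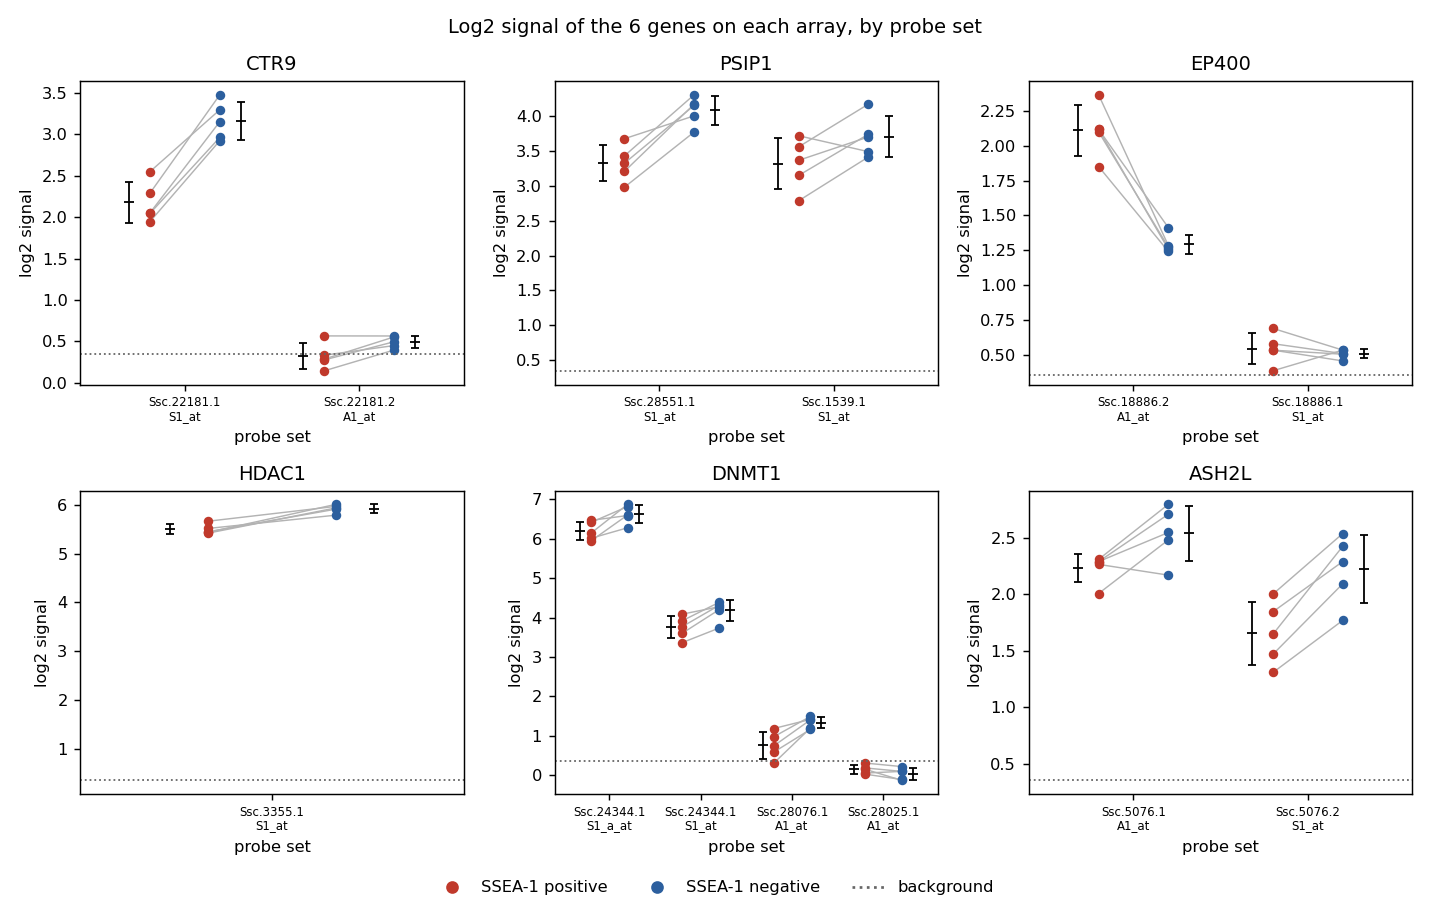
Log2 signal (y axis) of every probe set (x axis) of the 6 genes, 1 panel per gene; points are arrays, grey lines join arrays with the same replicate number, black bars are mean ± SD (n = 5 per fraction), and the dotted line is the background of 0.352. The SSEA-1 positive points of CTR9 (2.18 on average against 3.16), PSIP1 and HDAC1 lie wholly below the negative ones on 1 probe set each, and those of EP400 wholly above (2.11 against 1.29).

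CTR9, the PAF1 complex scaffold, had log2 signals of 2.29, 2.05, 1.95, 2.55 and 2.05 in SSEA-1 positive replicates 1 to 5, against 3.48, 3.15, 2.92, 3.30 and 2.96 in SSEA-1 negative replicates 1 to 5 on probe set Ssc.22181.1.S1_at. Every positive array lay below every negative one, with a gap of 0.37 between the fractions. The means were 2.18 ± 0.24 in positive and 3.16 ± 0.23 in negative fractions (SD, n = 5 each), a difference of -0.98. Within replicate numbers the difference ran from -1.19 in replicate 1 to -0.75 in replicate 4. The second CTR9 probe set, Ssc.22181.2.A1_at, was dim, at 0.32 ± 0.15 in positive and 0.49 ± 0.07 in negative fractions (SD, n = 5 each). It exceeded background on 1 of 5 positive arrays and on 5 of 5 negative arrays, so its difference of -0.17 is close to the limit of detection.

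PSIP1, the reader of methylated histone H3, had 2 probe sets well above background. On Ssc.28551.1.S1_at its log2 signals were 3.32, 2.98, 3.20, 3.67 and 3.42 in SSEA-1 positive replicates 1 to 5 and 4.15, 3.77, 4.16, 4.00 and 4.30 in negative ones. The fractions did not overlap, though the gap was only 0.10, between positive replicate 4 and negative replicate 2. The means were 3.32 ± 0.26 against 4.07 ± 0.20 (SD, n = 5 each), and the pair differences ran from -0.96 to -0.33. On Ssc.1539.1.S1_at the signals were 3.15, 2.78, 3.36, 3.71 and 3.55 in positive and 3.73, 3.41, 3.70, 3.49 and 4.17 in negative replicates 1 to 5. Here the fractions overlapped, and replicate 4 ran against the rest, with a pair difference of 0.23 while the other pairs lay between -0.63 and -0.33. The mean difference on this probe set was -0.39, about as large as its SD of 0.36 in positive fractions. Both probe sets carry the same gene symbol, and the files do not say which PSIP1 isoforms each detects.

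EP400, the ATPase of the TIP60 complex, was the gene that read higher. On Ssc.18886.2.A1_at its log2 signals were 2.12, 1.85, 2.10, 2.12 and 2.37 in SSEA-1 positive replicates 1 to 5, against 1.26, 1.24, 1.27, 1.41 and 1.28 in negative ones. All 5 positive arrays exceeded all 5 negative arrays, with a gap of 0.44, and the negative arrays were tightly grouped at 1.29 ± 0.07 while the positive ones averaged 2.11 ± 0.18 (SD, n = 5 each). The pair differences were all positive, from 0.61 in replicate 2 to 1.08 in replicate 5. The second probe set, Ssc.18886.1.S1_at, gave 0.54 ± 0.11 in positive and 0.51 ± 0.03 in negative fractions (SD, n = 5 each) and a difference of 0.04. It was above background on every array but only by a little, and it did not show the higher signal. The identifier of the brighter probe set carries the letter A where others carry S, and the files do not say which strand this marks.

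HDAC1, the histone deacetylase, is read by a single probe set, Ssc.3355.1.S1_at. Its log2 signals were 5.42, 5.52, 5.44, 5.67 and 5.45 in SSEA-1 positive replicates 1 to 5 and 5.94, 5.79, 6.01, 5.97 and 5.91 in negative ones. The fractions did not overlap, and HDAC1 had the smallest summed SD of the 5 genes that read lower on their brightest probe sets, with 5.50 ± 0.10 in positive and 5.93 ± 0.08 in negative fractions (SD, n = 5 each). The difference was -0.43, with pair differences from -0.57 to -0.27.

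DNMT1, the maintenance DNA methyltransferase, is read by 4 probe sets, of which 3 averaged above background and all 3 read lower. On the brightest, Ssc.24344.1.S1_a_at, the log2 signals were 5.95, 6.01, 6.42, 6.47 and 6.14 in SSEA-1 positive replicates 1 to 5 and 6.60, 6.28, 6.82, 6.59 and 6.87 in negative ones. Each positive array lay below the negative array of its own number, but the fractions overlapped, since positive replicates 3 and 4 exceeded negative replicate 2. The means were 6.20 ± 0.23 against 6.63 ± 0.23 (SD, n = 5 each), a difference of -0.43. Ssc.24344.1.S1_at, whose identifier names the same target cluster, gave the same difference of -0.43, with means of 3.75 ± 0.28 and 4.18 ± 0.26 (SD, n = 5 each). Ssc.28076.1.A1_at gave -0.57, from 0.76 ± 0.34 in positive and 1.34 ± 0.15 in negative fractions (SD, n = 5 each). In all 3 the pair with the smallest difference was replicate 4. The remaining probe set, Ssc.28025.1.A1_at, was below background on all 10 arrays and holds no information on DNMT1.

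ASH2L, the COMPASS core subunit, had 2 probe sets that differed in how clearly the fractions separated. On Ssc.5076.1.A1_at the log2 signals were 2.29, 2.26, 2.31, 2.29 and 2.01 in SSEA-1 positive replicates 1 to 5 and 2.55, 2.17, 2.80, 2.71 and 2.48 in negative ones. Replicate 2 was reversed there, with a pair difference of 0.10, and the means were 2.23 ± 0.13 against 2.54 ± 0.24 (SD, n = 5 each). On Ssc.5076.2.S1_at the signals were 1.84, 1.31, 1.65, 2.00 and 1.47 in positive and 2.29, 1.77, 2.42, 2.54 and 2.09 in negative replicates 1 to 5. All 5 pairs read lower on it, by -0.78 to -0.44, although the fractions as a whole overlapped, since negative replicate 2 lay below positive replicates 1 and 4. The mean difference was -0.57 on this probe set and -0.31 on the brighter one.

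**Figure D2:**
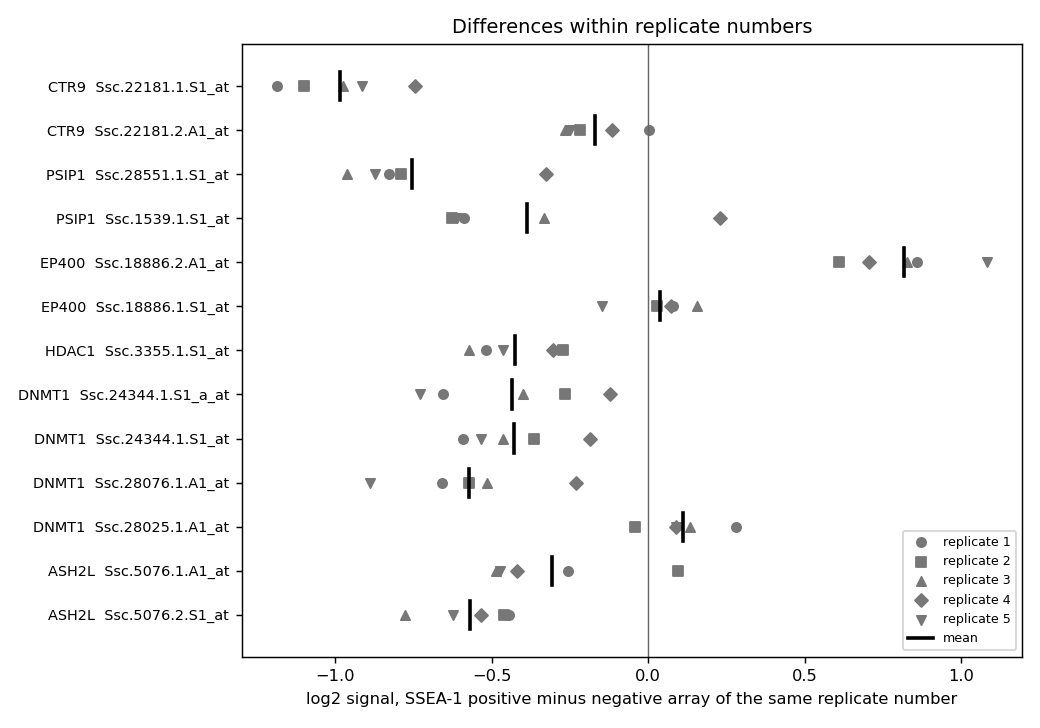
Difference in log2 signal between the SSEA-1 positive and negative arrays of the same replicate number (x axis) for each of the 13 probe sets (rows); each marker shape is 1 replicate number and the black bar is the mean of the 5. Replicate 4 (diamonds) has the smallest fall in 6 of the 10 probe sets that read lower, and the EP400 probe set Ssc.18886.2.A1_at lies at 0.61 to 1.08.

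Across the 13 probe sets, 3 had fractions that did not overlap with the positive arrays lower, and 1 with the positive arrays higher. Among all 23935 probe sets that are not controls those shares were 3.32% and 2.98%, and here too the choice of genes used the contrast. Leaving out any single array or any replicate pair left the sign of all 13 differences as it was. The difference of CTR9 then ran from -1.08 to -0.91, that of EP400 from 0.75 to 0.88 and that of HDAC1 from -0.47 to -0.39 on their brightest probe sets.

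Variation between replicate numbers does not enter the mean difference between the fractions, so it was tested. It does enter the spread that a fit without the replicate block sets against that difference. The test is therefore not wholly free of the choice of genes. In limma, with the fraction kept in the fit, 1 of the 13 probe sets differed between replicate numbers at an adjusted p under 0.05, against 1.92% of all probe sets that are not controls. It was the ASH2L probe set Ssc.5076.2.S1_at (F = 12.2, adjusted p = 0.0404), whose average over both fractions was 1.54 in replicate 2 and 2.27 in replicate 4. The next was the DNMT1 probe set Ssc.24344.1.S1_at, lowest in replicate 2 at 3.55 and highest in replicate 4 at 4.18 (F = 9.12, adjusted p = 0.0733). At an unadjusted p under 0.05 there were 7 of the 13 probe sets, against 15.9% of all probe sets. They were the brighter CTR9 probe set, both of PSIP1, every DNMT1 probe set that averaged above background, and Ssc.5076.2.S1_at of ASH2L. Probe sets of 1 gene are not separate units, and both of PSIP1 correlated at 0.90 within fractions. Nothing is therefore read from the 7 beside that share. Replicate 2 held the lowest average in 8 of the 13 and replicate 4 the highest in 6. Without replicate 2, limma called none of the 13 and none of all probe sets, with 3 of the 13 and 2444 of all at an unadjusted p under 0.05.

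Within fractions the genes varied together to different degrees. As a description over 10 arrays, which share their replicate numbers, deviations from the fraction means correlated at 0.90 between both PSIP1 probe sets, at 0.90 between both DNMT1 probe sets of cluster Ssc.24344 and at 0.76 between both ASH2L probe sets. The brightest PSIP1 and DNMT1 probe sets correlated at 0.71 and those of HDAC1 and DNMT1 at 0.63. The brightest CTR9 probe set correlated at -0.12 with that of DNMT1, 0.04 with that of ASH2L, 0.06 with that of EP400, 0.31 with that of PSIP1 and 0.37 with that of HDAC1, and at 0.48 with the second one of ASH2L. The brightest EP400 probe set correlated at -0.15 with that of ASH2L, -0.06 with that of HDAC1, 0.16 with that of DNMT1 and 0.47 with that of PSIP1. The dimmer EP400 probe set correlated at -0.43 with the brighter one and at 0.70 with the DNMT1 probe set Ssc.28076.1.A1_at. This EP400 probe set lay close to background, at 0.54 in positive and 0.51 in negative fractions. The DNMT1 one was dim as well, at 0.76 in positive fractions, so little can be read from these values.

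**Figure D3:**
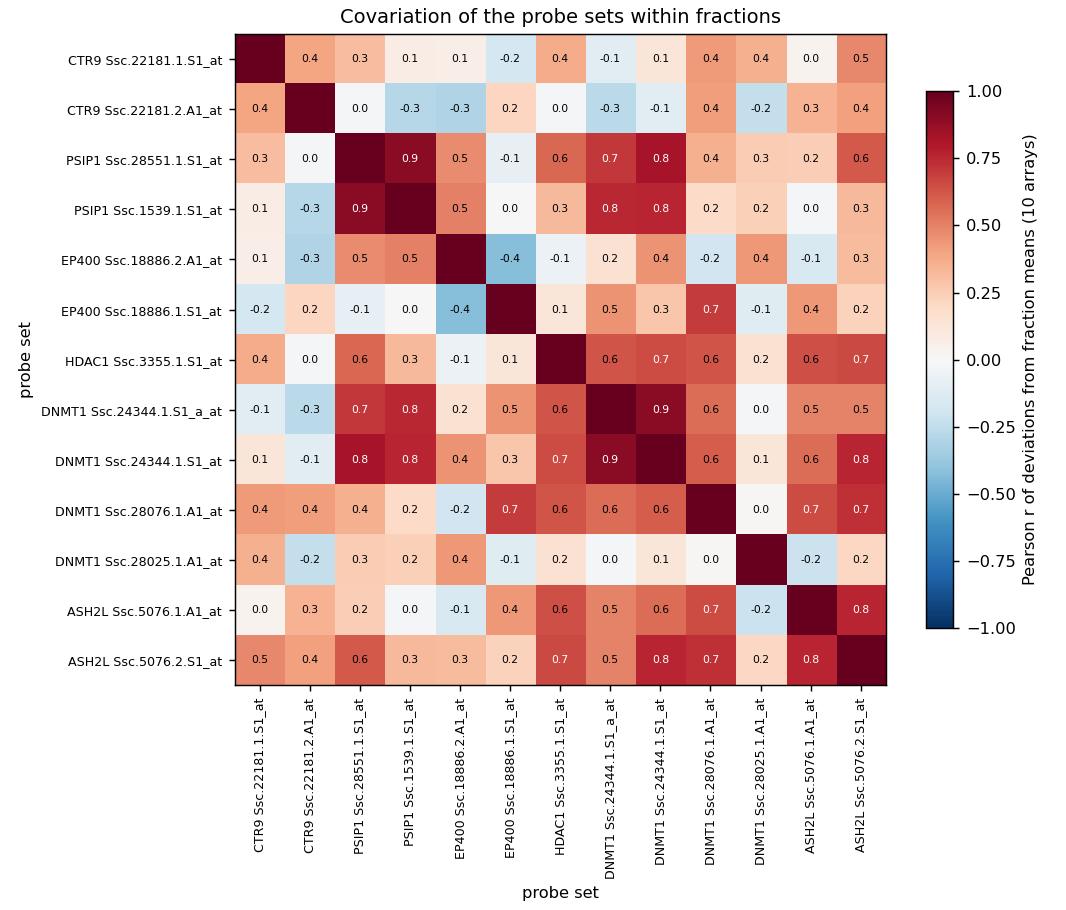
Pearson correlation (colour and printed value) between the 13 probe sets, each taken as deviations from its fraction mean over 10 arrays; rows and columns are probe sets in the same order. Values reach 0.90 within PSIP1 and within DNMT1, and run from -0.12 to 0.37 between the brightest CTR9 probe set and those of the other genes.

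The named genes whose deviations within fractions were most like each member's were sought among 5690 others above background, again over 10 arrays. For CTR9 they were EIF3L, LRRC8A and EIF3D, with correlations of 0.94, 0.91 and 0.91; EIF3L and EIF3D are subunits of a translation initiation factor. For PSIP1 they were KNOP1, HNRNPA2B1 and PSMD11, at 0.98, 0.97 and 0.97, and 48 genes exceeded 0.9. For EP400 they were PSMD3, LEP and TOX4, at 0.90, 0.89 and 0.89. HDAC1 was closest to CEP192, RAD50 and PSMG3, at 0.93, 0.93 and 0.92. DNMT1 was closest to RSL1D1, MTF2, a Polycomb-associated protein, and TMEM44, at 0.91, 0.91 and 0.90. ASH2L was closest to DPM2, WTAP, a subunit of the RNA m6A methyltransferase, and SZRD1, at 0.92, 0.91 and 0.90. Besides the 48 for PSIP1, genes above 0.9 numbered 4 for CTR9, 1 for EP400, 3 for HDAC1, 4 for DNMT1 and 3 for ASH2L. How many of 5690 genes would exceed 0.9 by chance over 10 arrays was not tested.

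The other genes of the complexes to which the 6 belong were read from 8 lists, in which 81 of 161 genes were measured, 80 of them above background. The question was whether partners of the 6 proteins differed between fractions as well, and p-values were adjusted over all 24123 probe sets in limma. Of the 81, 7 fell and 1 rose in SSEA-1 positive fractions, or 8.64% and 1.23%, where 4.18% of all genes fell and 3.21% rose. The remaining 73 did not pass. Counts of partners at an unadjusted p under 0.05, given below, have no such share of all genes beside them. Nothing is read from those counts. With the replicate number kept as a block in the fit, 11 fell and 3 rose, where 8.62% of all genes fell and 5.65% rose. Their median log2 difference was -0.07 and 64.2% of the 81 read lower, against a median of -0.01 and 52.4% for all 6765 genes. The 6765 include genes below background, while 80 of the 81 lay above it. Shares among genes above background were not computed.

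**Figure D4:**
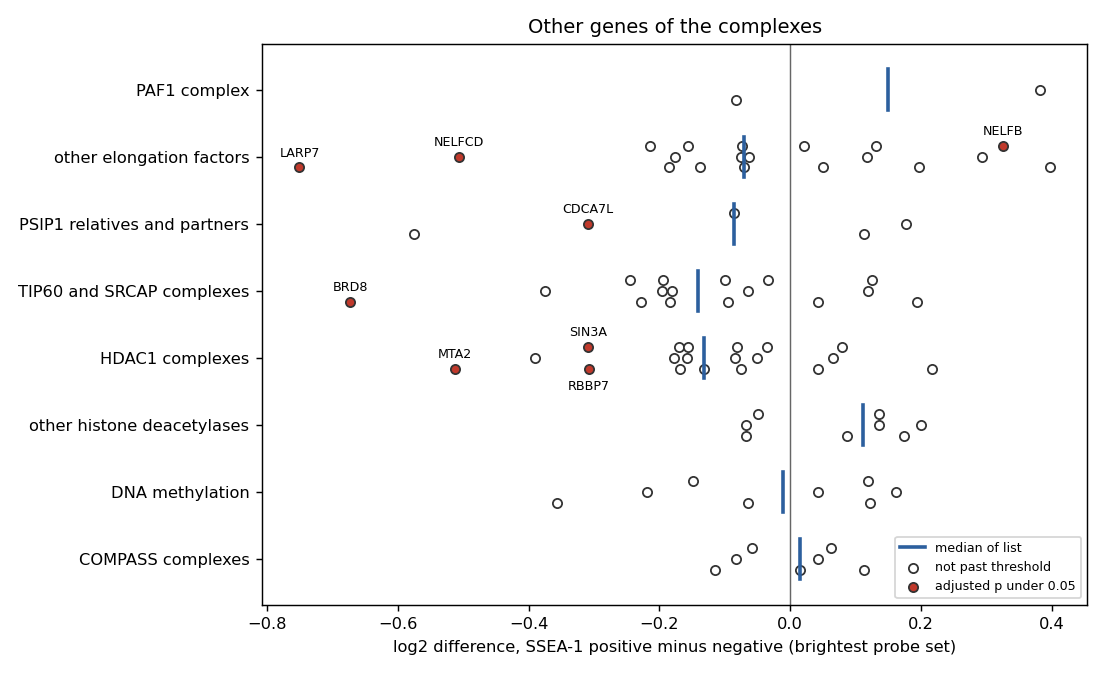
Log2 difference between SSEA-1 positive and negative fractions (x axis) of the measured genes in each of the 8 lists (rows), 1 point per gene on its brightest probe set; filled points passed the adjusted p threshold of 0.05 in limma and are named, and blue bars are list medians. The named points lie between -0.75 for LARP7 and 0.32 for NELFB, and most points lie close to 0.

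In the PAF1 complex around CTR9, PAF1 and RTF1 were measured, and neither passed on its brightest probe set. RTF1, which links the complex to histone ubiquitination, differed by -0.08 ± 0.08 (SE, adjusted p = 0.647). PAF1 itself gave opposite answers on its probe sets. The brightest, Ssc.11529.1.A1_at, read 3.94 ± 0.17 in positive and 3.55 ± 0.27 in negative fractions (SD, n = 5 each), a difference of 0.38 ± 0.12 (SE, adjusted p = 0.0899, or 0.0239 with a replicate block). The next, Ssc.6271.1.S1_at, read 3.40 ± 0.09 against 3.80 ± 0.11 (SD, n = 5 each) and fell by 0.40 ± 0.07 (SE, adjusted p = 0.00785), with fractions that did not overlap. The third, Ssc.6271.2.S1_at, gave -0.32 ± 0.11 (SE, adjusted p = 0.117). The direction of PAF1 therefore depends on the probe set, and the last 2 are described because their values were seen to disagree with the first. The call of Ssc.6271.1.S1_at held without each single array and ended in 2 of the 5 fits without a pair.

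Among other elongation factors, 19 of 41 were measured, 2 fell and 1 rose. LARP7, which binds the 7SK RNA that restrains the elongation kinase P-TEFb, fell by 0.75 ± 0.21 (SE, adjusted p = 0.0479). NELFCD and NELFB, subunits of the same pausing factor NELF, moved apart: NELFCD fell by 0.51 ± 0.14 (SE, adjusted p = 0.0472), and NELFB rose by 0.32 ± 0.07 (SE, adjusted p = 0.0141). The second NELFB probe set read 0.25 and the second NELFCD probe set 0.03, and neither passed. ELOB, a subunit of elongin, and AFF1, a scaffold of the super elongation complex, read 0.20 and 0.40 higher without passing (adjusted p = 0.108 and 0.147, with 0.0229 for AFF1 under the replicate block). The calls of LARP7 and NELFCD each ended in 8 of 10 fits without a single array, those of either fraction among them, at adjusted p up to 0.201 and 0.194 over all leave-outs, and that of NELFB ended in none of the 10 but without replicate 1 or replicate 5.

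Of the relatives and partners of PSIP1, 5 of 9 were measured and 1 fell. CDCA7L, a PSIP1-binding protein, fell by 0.31 ± 0.07 (SE, adjusted p = 0.0217), with fractions that did not overlap. DBF4, the activator of the replication kinase CDC7 and a PSIP1 partner, read -0.58 ± 0.22 (SE, adjusted p = 0.164, or 0.00708 with the replicate block), while its other probe sets read -0.22 and -0.17. MEN1, the adaptor that PSIP1 joins to histone methyltransferases, differed by 0.11 (adjusted p = 0.505). The call of CDCA7L ended without positive replicate 1 or 5, without negative replicate 3 or 5, and without the pairs 1, 3 or 5.

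In the TIP60 and SRCAP complexes, where EP400 acts, 16 of 22 genes were measured, 12 read lower, 1 fell and none rose, with 1 higher at an unadjusted p under 0.05. BRD8, a bromodomain subunit of the EP400 complex, read 4.32 ± 0.27 in positive and 5.00 ± 0.17 in negative fractions (SD, n = 5 each) and fell by 0.67 ± 0.12 (SE, adjusted p = 0.00761), opposite in sign to EP400. RUVBL2, an ATPase that the complexes share, read -0.38 (adjusted p = 0.0572, or 0.00766 with the replicate block), and ACTR6 read -0.25 (adjusted p = 0.0653). The call of BRD8 held without each single array and ended without replicate 1 or replicate 3 of both fractions.

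Among partners of HDAC1, 19 of 35 genes were measured, 15 read lower, 3 fell and none rose, with 1 higher at an unadjusted p under 0.05. MTA2, a subunit of NuRD, read 4.63 ± 0.10 in positive and 5.14 ± 0.13 in negative fractions (SD, n = 5 each) and fell by 0.51 ± 0.08 (SE, adjusted p = 0.00334). RBBP7, a histone chaperone of SIN3 and NuRD, fell by 0.31 ± 0.07 (SE, adjusted p = 0.0248). SIN3A, the scaffold of the SIN3 complex, fell by 0.31 ± 0.08 (SE, adjusted p = 0.0479), and its second probe set read -0.11 (adjusted p = 0.616). All 3 had fractions that did not overlap. KDM1A, the histone demethylase of CoREST, read -0.17 (adjusted p = 0.201), whereas RCOR1, the CoREST scaffold, read 0.22 (adjusted p = 0.142). The call of MTA2 held without any single array or pair; that of RBBP7 ended in 6 of 10 single-array fits and that of SIN3A in 9, up to adjusted p of 0.102 and 0.172 over all leave-outs. None of the 8 other histone deacetylases and sirtuins measured of 16 passed in limma, with or without the replicate block, and 1 had an unadjusted p under 0.05. HDAC6 read 0.17 (adjusted p = 0.217) and HDAC5 0.20 (adjusted p = 0.255).

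Of the DNA methylation genes around DNMT1, 8 of 19 were measured and none passed in limma, with 2 lower at an unadjusted p under 0.05. MBD1, a reader of methylated DNA, read -0.36 ± 0.10 (SE, adjusted p = 0.0502, or 0.0250 with the replicate block). ZBTB33, another reader, read -0.22 (adjusted p = 0.118).

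Around ASH2L, 7 of 19 COMPASS genes were measured and none passed on its brightest probe set in limma, nor did any reach an unadjusted p under 0.05. WDR82, a subunit that recruits the SETD1 methyltransferases, read -0.08 (adjusted p = 0.579) on that probe set, Ssc.1045.1.A1_at. Its other probe sets, looked at after their values were seen, did pass: Ssc.21588.1.S1_at fell by 0.33 ± 0.06 (SE, adjusted p = 0.00901) and Ssc.21588.2.S1_at by 0.53 ± 0.07 (SE, adjusted p = 0.000729). On the last of these the means were 2.47 ± 0.06 in positive and 3.01 ± 0.08 in negative fractions (SD, n = 5 each), and the fractions did not overlap on either. The call of Ssc.21588.1.S1_at ended in 2 of 5 fits without a pair, at adjusted p up to 0.0675 over all leave-outs, and that of Ssc.21588.2.S1_at in none.

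The poly-A spike-in controls, which are added to the RNA before labelling, differed between the fractions. Their level relative to the hybridisation controls was -3.45 to -2.66 in positive and -4.32 to -3.80 in negative fractions on the log2 scale, 0.82 higher in positive ones (exact two-sided permutation test over 252 assignments, p = 0.00794, the smallest 5 against 5 arrays can give). The permutation test took the arrays as unpaired, and no test within replicate numbers was run. Because the levels of the 2 fractions did not overlap, a fit with this level as a covariate extrapolates. In that fit the differences were -0.98 ± 0.25 for CTR9, 0.82 ± 0.17 for EP400, -0.42 ± 0.14 for HDAC1, -0.65 ± 0.24 for PSIP1, -0.57 ± 0.24 for DNMT1 and -0.63 ± 0.19 for ASH2L (SE, brightest probe sets). CTR9, EP400 and HDAC1 kept nearly the same differences as without the covariate, and within fractions they correlated with the poly-A level at -0.01, 0.00 and -0.01 over 10 arrays. The brightest probe sets of PSIP1, DNMT1 and ASH2L correlated with it at -0.17, 0.20 and 0.58, and the dimmer one of EP400 at 0.54. With the replicate number as a block beside the covariate, CTR9 read -0.83 ± 0.25 and EP400 0.72 ± 0.26, whereas PSIP1 read -0.18 ± 0.235, HDAC1 -0.22 ± 0.23, DNMT1 -0.25 ± 0.30 and ASH2L -0.27 ± 0.30 (SE). All 8 calls among the partners, and those of the further PAF1 and WDR82 probe sets, ended with the covariate. Limma passed none of the 81 in that fit. An unadjusted p under 0.05 was seen for 20 of them, and for 10 with the block beside the covariate. The share of all genes at that p was not counted, so nothing is read from the 20 and 10. In the fit with the covariate alone the SEs were larger and the differences of the 8 kept their signs: MTA2 read -0.61 ± 0.15, RBBP7 -0.43 ± 0.14, SIN3A -0.47 ± 0.16 and NELFB 0.43 ± 0.13, further from 0 than without it (SE). BRD8 read -0.56 ± 0.24, NELFCD -0.47 ± 0.27, CDCA7L -0.26 ± 0.14 and LARP7 -0.41 ± 0.38, closer to 0 (SE).

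**Figure D5:**
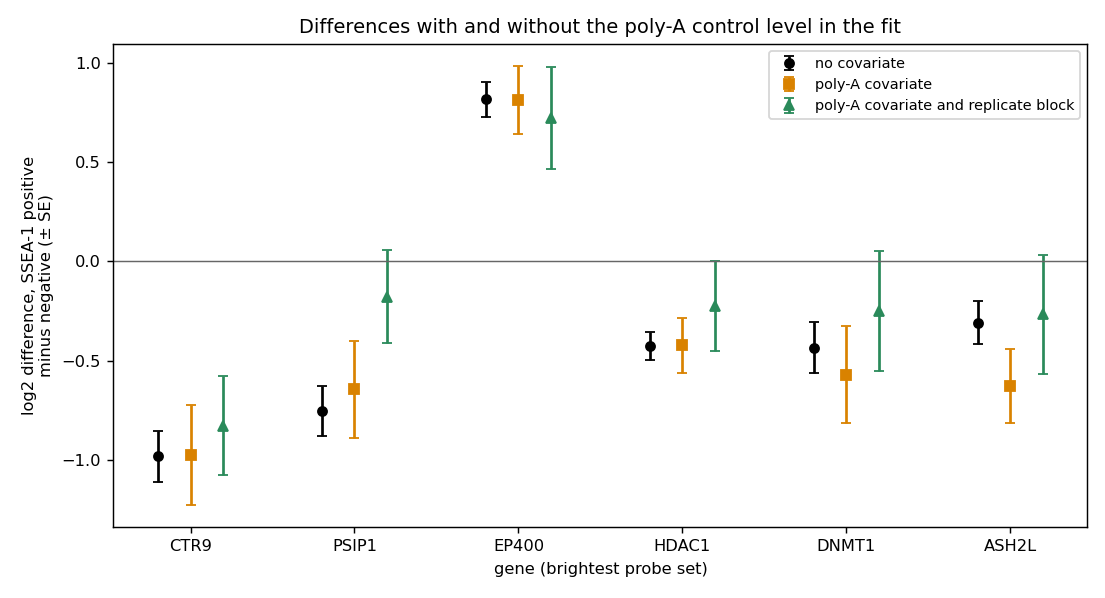
Log2 difference between SSEA-1 positive and negative fractions (y axis, ± SE) of the brightest probe set of each gene (x axis) without covariate, with the poly-A control level as covariate, and with that level and the replicate block. CTR9 stays between -0.98 and -0.83 and EP400 between 0.72 and 0.82, while PSIP1 runs from -0.76 to -0.18.

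Cell cycle genes read lower in the same contrast, though few passed the test, and DNMT1 is itself most active in S phase. The shares of all genes that fell, given above, were 4.18% without and 8.62% with the block. Of the G1/S and replication list 11 of 25 genes were measured and all 11 read lower in positive fractions, with a median of -0.24 and 1 call, CDC45 (3 calls with the replicate block). Of the G2/M list 18 of 27 were measured and all 18 read lower, with a median of -0.63 and 3 calls (16 with the replicate block). The G2/M mean level was 3.47 to 4.53 in positive and 3.88 to 5.41 in negative fractions. Within fractions, over 10 arrays, the brightest probe set of DNMT1 correlated with the G1/S mean at 0.72, that of ASH2L at 0.70, that of PSIP1 at 0.58, that of HDAC1 at 0.49 and that of EP400 at 0.51, while that of CTR9 correlated at 0.03. The part of these genes' levels in the differences of the 6 was not tested.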

How the data were processed

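RNA of 10 sorted fractions was hybridised to Affymetrix porcine arrays as biotin-labelled cRNA. The authors deposited log2 probe set signals from RMA, per the submitters' processing notes, which give neither its version nor how background was handled. As a check of the log base, hybridisation controls gained 0.937 to 1.05 per log2 unit of concentration, taking the supplier's concentrations as known.

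Probe sets were named through the platform annotation, with 10099 of 24123 carrying 1 symbol, 198 several (not named) and 13826 none, and updated by Entrez identifier for 9989, with no symbol changed. Each partner gene was read from its brightest probe set. Fractions were compared with limma 3.58.1 in R 4.3.3 (lmFit, eBayes) on all probe sets, with Benjamini-Hochberg adjustment and a threshold of 0.05. Replicate numbers were tested by limma's moderated F with fraction in the fit. Both tests were tested on simulated data.

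The members and lists were chosen with earlier results of these data known. Named partners were those past the threshold, up to 6 a list, and the 2 next by p. Same-numbered arrays deviated together (correlations of 0.214, 0.580, 0.356, 0.119 and 0.247 for replicates 1 to 5, though positive 4 with negative 5 reached 0.314 and positive 3 with negative 4 reached 0.304) and the series text gives each replicate both fractions, so the numbers were treated as pairs in the alternative with a replicate block. Other alternatives were scalings, moderation settings, array weights, a filter on dim probe sets, averaging all probe sets of a gene, the poly-A covariate and leaving out arrays.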

Additional observations from a re-analysis of the deposited data

Results flagged for a closer look

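In 4 of 82 groups of 5 arrays checked, 1 array stood apart from the others by more than Dixon's critical value of 0.71 for the gap over the range; chance flags about 1 in 20. For EP400 (Ssc.18886.2.A1_at), SSEA-1 negative replicate 4 read 1.41 where the others read 1.24 to 1.28 (ratio 0.753), still below every positive array. For DNMT1 (Ssc.24344.1.S1_at), negative replicate 2 read 3.73 against 4.20 to 4.39 in the others (0.712). For ASH2L (Ssc.5076.1.A1_at), positive replicate 5 read 2.01 against 2.26 to 2.31 (0.853). For PAF1 (Ssc.11529.1.A1_at), negative replicate 4 read 3.09 against 3.60 to 3.77 (0.750).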

How the results depend on the processing

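Of the 6 brightest probe sets, all kept their sign in every alternative run, and values moved by at least 1 SD of the replicates in 5 cases: CTR9 read -0.58 and EP400 0.43 when all probe sets of a gene were averaged, ASH2L -0.63 with the poly-A covariate, and PSIP1 -0.18 and HDAC1 -0.22 with that covariate and the replicate block. Signs did change among the dimmer probe sets. With the poly-A covariate and the block, PSIP1 Ssc.1539.1.S1_at turned from -0.39 to 0.12 and CTR9 Ssc.22181.2.A1_at from -0.17 to 0.04. EP400 Ssc.18886.1.S1_at turned from 0.04 to -0.09 with the covariate and to -0.01 with both. Scaling moved little: CTR9 ran from -0.98 to -0.95 and EP400 from 0.82 to 0.83 over median centring, repeated quantile normalization and cyclic loess. Of all noncontrol probe sets, 1437 passed in limma, 598 higher and 839 lower; quantile normalization gave 725 higher and 688 lower and cyclic loess 732 and 709, so the balance depends on the scaling. The replicate block gave 2771, the poly-A covariate 12, and both together 4. Leaving out 1 array or pair gave 355 to 1779, with 451, 423 and 355 without replicates 1, 3 and 5.

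Among the 81 partners, 8 passed (1 higher, 7 lower). The replicate block gave 14 (3 higher, 11 lower), quantile normalization and cyclic loess 5 each (4 lower in both), and the poly-A covariate 0 in either direction with or without the block. Averaging all probe sets of a gene gave 12, of which 2 rose. Leave-outs gave 1 to 10 (0 to 1 higher, 1 to 9 lower), with 3 without positive replicate 5, negative replicate 3 or negative replicate 5, and 1 without both arrays of replicate 1. SIN3A, -0.31 in the main fit and -0.47 with the poly-A covariate alone, turned to 0.029 with the covariate and the block. The cause was not tested.

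For the replicate number, the 1 call among 13 probe sets became 2 with trend and robust settings or array weights, 0 with the poly-A covariate (6 at an unadjusted p under 0.05), and 0 to 2 over leave-outs. The poly-A difference kept its side of the threshold in all settings run. The levels of the fractions did not overlap in any of them, so this adds little to the main test. Differences near the background of 0.352 are the least certain.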
